A study of Mus musculus with 6 samples.

Results

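Parent-only intergenic regions were the stretches of open chromatin, away from genes, that were listed in parent neural stem/progenitor cells (NSPCs) and had no counterpart in ΔSRR2–18 NSPCs. They numbered 15440, of 82885 parent regions in all and 25880 intergenic parent regions. A region was selected on 2 measured lists and on its position: no base of it overlapped a ΔSRR2–18 region, its strongest summit lay more than 1 kb from every annotated transcription start site (TSS), and that summit lay outside every annotated gene. Membership was thus chosen by the ATAC-seq calls themselves, and the absence from the ΔSRR2–18 list is a description and not a finding. Of all parent regions, 43385 (52.3%) had no overlapping ΔSRR2–18 region, against 59.7% (95% Wilson interval 59.1 to 60.3) of the intergenic ones, 62.9% of those in gene bodies and 15.2% of those at promoters.

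The 2 cell lines were NSPCs differentiated from F1 hybrid mouse ESCs (129S1/Cast), grown in N2B27 with EGF and bFGF. Parent NSPCs came from clone 5B, which carries a Sox2–mCherry reporter on the 129 allele and has SRR2–18 intact, and ΔSRR2–18 NSPCs came from clone 47D, which carries the same reporter and lacks SRR2–18 on both alleles. Each genotype had 3 cultures of 1 clone, so genotype and clone cannot be told apart. The deposited lists pool the 3 cultures of a genotype, so no region has a value per culture and no test between genotypes was made from them. The intervals given here cover counting error only.

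ATAC-seq uses a transposase that cuts open chromatin, and intergenic sites of this kind are often distal enhancers and insulators. In neural progenitors, distal enhancers are commonly bound by SOX2 and its relatives together with POU factors, by NFI factors and by RFX factors, whose binding motifs are short and recognisable in the sequence. AP-1 (FOS and JUN) opens enhancers in many cell types in response to growth signals, and CTCF marks insulators and loop anchors. SOX2 itself keeps neural progenitors in a proliferating state, and SRR2–18 is a cluster of enhancers downstream of the gene.

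The sequences below are examples picked for a motif near the summit, and do not stand for all parent-only intergenic regions. Of these regions, 46.5% held at least 1 of SOX, POU, RFX or NFI half-site letters within 100 bp of the summit. The examples are among the strongest by fold enrichment (summit reads over local background) that had a motif within 20 bp of the summit. There are 2 for SOX, 1 for NFI and 2 each for RFX and POU. The 2 strongest ΔSRR2–18-only intergenic regions follow. Those were picked by strength and not by motif, so the 2 sets are not a like contrast. All were chosen after their values were seen. Each is named by its nearest protein-coding gene and is 121 bases of the forward strand of GRCm38 (mm10) centred on the summit. Capitals mark matches to SOX (ACAAAGG or ACAATGG), POU (ATGCAAAT), RFX (GTTGCCA), the NFI half-site (TTGGCA) or AP-1 (TGACTCA), on either strand. The letters are those of the reference strain, and the 129 and Cast alleles may differ from them.
*Kbtbd8* region, chr6:95167762-95167882: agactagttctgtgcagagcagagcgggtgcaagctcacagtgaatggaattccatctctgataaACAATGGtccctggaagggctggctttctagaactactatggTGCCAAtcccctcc
*Nmur2* region, chr11:56247154-56247274: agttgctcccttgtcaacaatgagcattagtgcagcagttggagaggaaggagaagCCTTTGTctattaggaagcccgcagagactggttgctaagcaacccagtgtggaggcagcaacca
*D3Ertd751e* region, chr3:42908528-42908648: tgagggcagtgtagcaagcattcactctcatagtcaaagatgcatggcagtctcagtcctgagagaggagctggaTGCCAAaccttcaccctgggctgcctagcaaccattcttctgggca
*Adgrl3* region, chr5:79735037-79735157: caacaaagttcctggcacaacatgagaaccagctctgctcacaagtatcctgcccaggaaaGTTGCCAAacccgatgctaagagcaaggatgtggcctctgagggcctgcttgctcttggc
*Tmc1* region, chr19:21054311-21054431: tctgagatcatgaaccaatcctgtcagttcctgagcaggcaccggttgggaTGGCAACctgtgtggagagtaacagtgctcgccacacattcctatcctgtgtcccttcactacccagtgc
*Chodl* region, chr16:78827887-78828007: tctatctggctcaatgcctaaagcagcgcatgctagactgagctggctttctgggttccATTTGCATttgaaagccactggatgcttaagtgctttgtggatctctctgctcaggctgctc
*Arrdc4* region, chr7:69218015-69218135: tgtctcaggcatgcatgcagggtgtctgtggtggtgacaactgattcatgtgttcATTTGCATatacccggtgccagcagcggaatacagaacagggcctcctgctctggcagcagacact
*Phc3* region, ΔSRR2–18 only, chr3:30982149-30982269: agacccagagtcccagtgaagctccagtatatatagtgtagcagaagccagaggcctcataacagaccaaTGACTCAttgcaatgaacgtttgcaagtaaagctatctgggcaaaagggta
*Sec23a* region, ΔSRR2–18 only, chr12:58827984-58828104: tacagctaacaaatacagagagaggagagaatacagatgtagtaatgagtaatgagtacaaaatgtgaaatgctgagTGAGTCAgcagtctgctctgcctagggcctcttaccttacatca

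The SOX letters lay 8 bases from the summit at *Kbtbd8* and 1 base from it at *Nmur2*, the NFI half-site 18 bases away at *D3Ertd751e*, and the POU octamer 3 bases away at *Chodl* and 1 base away at *Arrdc4*. These short distances were set by the choice of examples. At *Adgrl3* the RFX and NFI letters overlapped, as they can, because both contain TGCCA on one strand or the other. Of the 1174 parent-only intergenic regions with RFX letters, 282 (24.0%, interval 21.7 to 26.5) had an NFI half-site overlapping them. Both ΔSRR2–18-only regions held AP-1 letters within 20 bases of the summit.

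Parent-only intergenic regions were rich in NFI half-site, SOX, RFX and POU letters and nearly without AP-1 letters above the level of nearby DNA. NFI half-sites lay within 100 bp of the summit in 4449 regions (28.8%, interval 28.1 to 29.5), against 10.6% in windows of the same width placed 500 bp away. SOX letters were present in 2396 regions (15.5%, interval 15.0 to 16.1), against 7.32% in the flank. RFX letters were present in 7.60% (interval 7.196 to 8.03), against 2.21% in the flank. The POU octamer was present in 3.59% (interval 3.31 to 3.90), against 1.41% in the flank. AP-1 letters were found in 434 regions (2.81%, interval 2.56 to 3.08), which did not exceed the 3.02% of the flank. Over all 150679 regions of both lists, the shares were 17.4% for NFI half-sites, 9.34% for SOX, 3.97% for RFX, 1.81% for POU and 21.6% for AP-1.

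These shares separated parent-only from shared and from ΔSRR2–18-only intergenic regions, but hardly from parent-only regions inside genes. SOX letters were 1.61 times as frequent (95% interval 1.50 to 1.72) as in the 10440 shared intergenic parent regions, where 9.66% held them. They were 2.28 times as frequent (interval 2.15 to 2.41) as in the 28414 ΔSRR2–18-only intergenic regions, where the 6.81% with SOX letters lay near the 7.07% of their flank. With the shorter cores ACAAAG and ACAATG, present in 39.5% of parent-only intergenic regions and 26.9% of their flanks, that ratio was 1.45. For NFI half-sites the ratios were 1.58 (interval 1.50 to 1.65) and 2.28 (interval 2.19 to 2.37). For RFX they were 1.63 (interval 1.47 to 1.80) and 3.54 (interval 3.21 to 3.89), and for POU 2.14 (interval 1.81 to 2.54) and 2.61 (interval 2.29 to 2.96). Against the 25429 parent-only regions in gene bodies, the intervals of the ratio included 1 for SOX (1.03, interval 0.985 to 1.08) and for NFI half-sites (1.02, interval 0.984 to 1.05). POU (1.23, interval 1.11 to 1.37) and RFX (1.19, interval 1.104 to 1.28) letters were somewhat more frequent outside genes than inside them.

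Among the motifs searched, AP-1 differed most from ΔSRR2–18-only intergenic regions. Its letters stood in 42.2% of ΔSRR2–18-only intergenic regions and in 11.2% of shared ones, so that their share in parent-only intergenic regions was 0.0665 times (interval 0.0606 to 0.0731) and 0.251 times (interval 0.226 to 0.280) as large. TEAD letters (ACATTCC), the motif of the factors that act with YAP, were present in 6.21% of parent-only and 10.3% of ΔSRR2–18-only intergenic regions. The parent-only value for TEAD stood above its flank of 2.84%. RUNX letters (AACCACA) were present in 4.33% of parent-only and 8.88% of ΔSRR2–18-only ones, and the parent-only value lay near its flank of 4.55%.

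**Figure D1:**
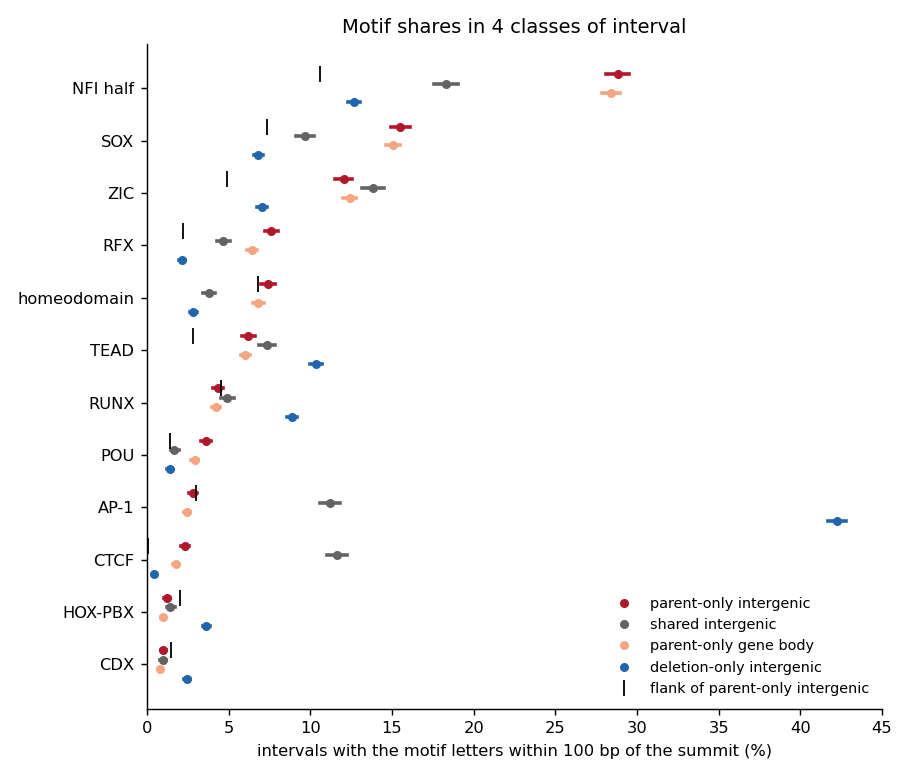
Percent of intervals (x axis) with each motif's letters (y axis) within 100 bp of the strongest summit in 4 classes of interval, with 95% Wilson intervals as lines. Parent-only intergenic intervals (red) lie close to parent-only gene-body intervals (orange) and above shared and deletion-only intergenic ones for NFI half-site, SOX, RFX and POU, while AP-1 reaches 42.2% in deletion-only intergenic intervals (blue). Black ticks give the flank of the parent-only intergenic intervals.

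Letters of paired HOX and PBX sites (TGATTTAT or TGATTGAT) were found in 1.22% of parent-only intergenic regions, below the 2.02% of their flank. They were found in 3.61% of ΔSRR2–18-only intergenic regions, with 2.30% in the flank. CDX letters (GCAATAAA or GCCATAAA), of the factors that pattern the trunk, were found in 1.00% against 2.44%, with flanks of 1.50% and 1.65%. GATA letters (AGATAAG) were found in 1.63% against 2.71%, with flanks of 2.84% and 2.86%. Neither GATA share exceeded its flank. The short homeodomain core TAATTA was present in 7.39% of parent-only intergenic regions, but 6.79% of their flanks held it too. In ΔSRR2–18-only intergenic regions it fell from 7.40% in the flank to 2.84% at the summit, and the ratio of 2.61 between the classes (interval 2.39 to 2.84) goes with that low value. ZIC letters (CCTGCTG) were present in 12.03% of parent-only, 13.8% of shared and 7.05% of ΔSRR2–18-only intergenic regions, against 4.91% in the flank of the parent-only ones.

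CTCF letters, searched as the core of its motif, separated shared from parent-only sites. They were present in 11.6% of shared intergenic regions, in 2.33% of parent-only intergenic regions (interval 2.10 to 2.57) and in 0.426% of ΔSRR2–18-only intergenic regions. In the flank of parent-only intergenic regions they were present in 0.0583%. The 7 other motifs that were searched, for TCF/LEF (ATCAAAG), ETS (CCGGAAG), KLF (GGGTGTGG), HES/HEY (GGCACGTG), FOX (TGTTTAC), GRHL (AACCGGTT) and MEIS (TTGACAG), stood in 0.0518% to 3.61% of parent-only intergenic regions. The full NFI palindrome, TTGGC and GCCAA 5 bases apart, stood in 0.2396%.

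Base composition differed between the classes and touched some of these ratios. The median GC content around the summit was 49.8% for parent-only intergenic, 51.2% for shared and 44.8% for ΔSRR2–18-only intergenic regions. With the ΔSRR2–18-only regions weighted to the GC content of the parent-only ones in 10 groups, the ratio became 2.61 for SOX, 2.49 for NFI half-sites, 4.38 for POU and 3.40 for RFX, and 0.0647 for AP-1. That for ZIC dropped from 1.71 to 1.14. Those for paired HOX and PBX letters and for CDX letters went from 0.338 to 0.478 and from 0.411 to 0.550.

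The matches gathered at the summit. SOX letters averaged 19.9 matches per 1000 regions in each 20 bp bin within 40 bp of the summit and 8.05 beyond 300 bp, a ratio of 2.48. The same ratio was 3.25 for NFI half-sites and 4.36 for RFX letters. It was 0.850 for AP-1 letters and 0.974 for the homeodomain core in parent-only intergenic regions. In ΔSRR2–18-only intergenic regions the ratio was 0.879 for SOX, 1.31 for NFI half-sites, 1.02 for RFX and 19.3 for AP-1. For CTCF letters it was 75.2 in parent-only and 20.6 in ΔSRR2–18-only intergenic regions, with 0.0680 and 0.0475 matches per 1000 regions beyond 300 bp. Of these 2 classes, SOX and RFX letters stood above their surroundings mainly in the parent-only one and AP-1 letters in the ΔSRR2–18-only one. NFI half-site and CTCF letters did so in both. Positions were not computed for other classes. Within 100 bp, shared intergenic regions also exceeded their flanks for SOX (9.66% against 6.64%), RFX (4.67% against 2.14%) and AP-1 (11.2% against 4.11%). So did parent-only gene-body regions for SOX (15.0% against 6.88%) and RFX (6.41% against 2.00%).

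**Figure D2:**
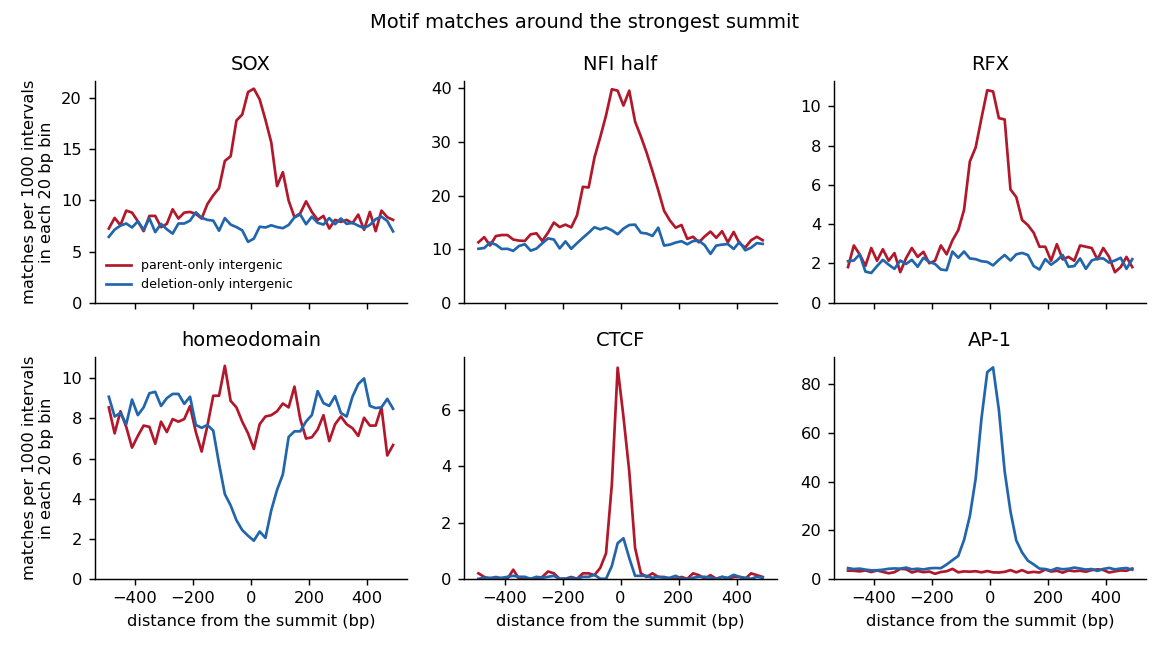
Matches per 1000 intervals in each 20 bp bin (y axis) against the distance from the strongest summit in bp (x axis), for 6 motifs. SOX, NFI half-site and RFX letters peak at the summit of parent-only intergenic intervals (red). AP-1 letters are flat in parent-only intergenic intervals and peak in deletion-only ones (blue). The homeodomain core is flat in the former and dips in the latter. CTCF letters peak in both classes.

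Many regions held at least 1 of SOX, POU, RFX or NFI half-site letters, and these 4 motifs seldom came together. Each of the 4 was already more frequent in parent-only than in shared or ΔSRR2–18-only intergenic regions. The contrasts below follow from those shares and are no separate support. ZIC letters, present in 12.03% but less frequent than in shared regions (ratio 0.870), were not included. At least 1 of SOX, POU, RFX or NFI half-site letters stood in 7181 regions (46.5%, interval 45.7 to 47.3), against 30.3% of shared and 21.1% of ΔSRR2–18-only intergenic regions. Of the parent-only intergenic regions, 8.48% held 2 or more of the 4, against 3.86% and 1.83%. Parent-only gene-body regions were close, with 44.8% for at least 1 and 7.52% for 2 or more. Overlapping RFX and NFI half-site letters, found in 282 parent-only intergenic regions, count as 2 here. SOX and NFI half-site letters stood together in 637 regions (4.13%, interval 3.82 to 4.45), near the 4.47% that is the product of their separate shares. SOX and POU letters stood together in 61 regions (0.395%, interval 0.308 to 0.507), and the product of their shares was 0.558%.

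Parent-only intergenic regions were weaker than shared ones in the parent list. Their fold enrichment had a median of 8.28 (quartiles 5.50 and 13.6, range 1.48 to 35.2), against 10.8 for shared intergenic and 7.85 for parent-only gene-body regions. Their median summit held 443 reads, against 679 for shared intergenic regions, and their median width was 606 bp against 669 bp. An IDR score of 1000, the cap of the measure of agreement between cultures, was reached by 75.6% of parent-only and 87.4% of shared intergenic regions. A single summit was listed for 70.2% and 56.5%. Fold enrichment divides by a local background that ranged in these regions from the list's lowest value, 38.8 reads, to 1195 reads, so a region with many reads can rank low by it.

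Strong regions were absent from the ΔSRR2–18 list too. Intergenic parent regions were divided by fold enrichment into 10 groups of about the same size. In the weakest group 70.0% had no ΔSRR2–18 region, and in the strongest, with a fold enrichment of 19.8 or more, 48.5% (interval 46.6 to 50.4) had none. The motif content shifted with strength. With the parent-only intergenic regions divided into 4 groups by fold enrichment, from the weakest to the strongest group NFI half-sites went from 24.6% (interval 23.3 to 26.0) to 33.3% (interval 31.9 to 34.8), POU letters from 3.01% to 4.30% and RFX letters from 6.59% to 9.17%. SOX letters went from 14.9% to 17.4%. CTCF letters went the other way, from 3.45% to 0.440%.

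**Figure D3:**
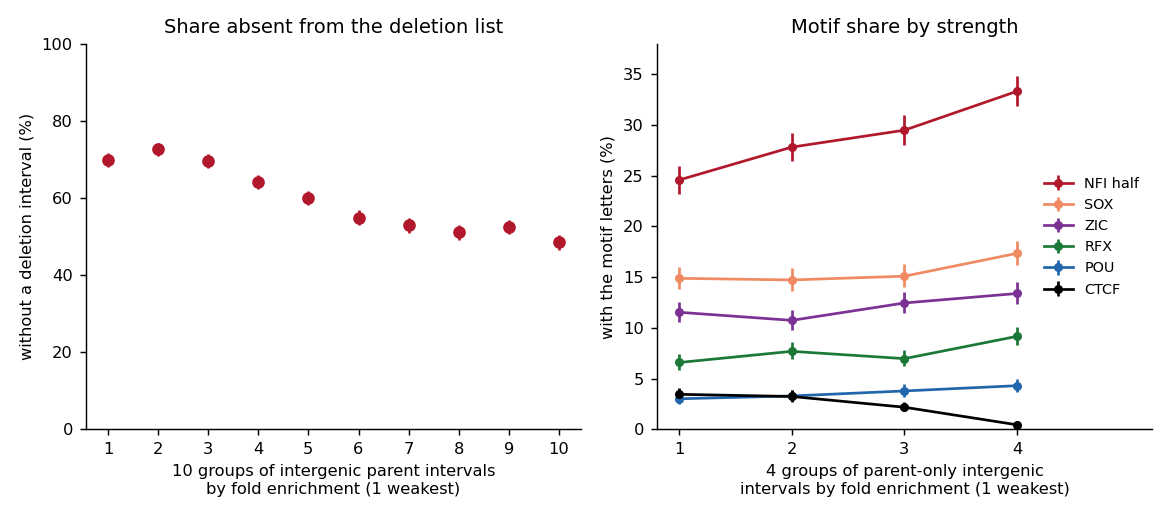
Left, percent of intergenic parent intervals without an overlapping deletion interval (y axis) in 10 groups of fold enrichment (x axis), which goes from 70.0% to 48.5%. Right, percent of parent-only intergenic intervals with each motif's letters (y axis) in 4 groups of fold enrichment (x axis), where the NFI half-site rises to 33.3% and CTCF drops to 0.440%; bars are 95% Wilson intervals.

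The parent list was about 1.98 times as deep as the ΔSRR2–18 list by its lowest background (38.8 against 19.7 reads), and a deeper list can contain weaker regions. The ΔSRR2–18 list was nevertheless the longer one, with 107480 regions against 82885. With reads and background of each parent-only intergenic region scaled down by that ratio, the median −log10 p went from 234 to 120. After scaling, all 15440 stayed at or above the lowest −log10 p of the ΔSRR2–18 list (2.19), as did all 10440 shared intergenic regions. That cut is the extreme of the list and separates no regions. Of the parent-only intergenic regions, 11284 (73.1%) stayed at or above the 10th percentile of −log10 p in the ΔSRR2–18 list (59.7). At or above its median (220) stayed 5144 (33.3%). Of the shared intergenic regions, 87.3% stayed at or above the 10th percentile and 50.3% at or above the median. The part of depth in the absence of regions from the ΔSRR2–18 list was not tested beyond these values.

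At the edges of the rule few regions were close calls. The smallest gap between a parent-only intergenic region and a ΔSRR2–18 region was 7 bp, at a fold enrichment of 4.11, and the smallest overlap of a shared one was 6 bp, at 11.9. A gap of at most 100 bp was found for 138 regions (0.894%) and a gap of at most 1000 bp for 1905 (12.3%), while the median gap was 6547 bp. The region nearest to a TSS lay 1001 bp from it, at a fold enrichment of 8.54. Between 1001 and 1100 bp from a TSS there were 64 parent-only regions outside genes, with a median fold enrichment of 7.65, and between 901 and 1000 bp, just outside the rule, there were 48, with a median of 6.30. The optimal ΔSRR2–18 list overlapped 958 of the regions (6.20%), and the optimal parent list held 14038 (90.9%).

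Parent-only intergenic regions lay farther from genes than shared ones and nearer than ΔSRR2–18-only ones. The median distance from the summit to the nearest TSS of any gene was 19651 bp (quartiles 8538 and 42407 bp). It was 14329 bp for shared and 23253 bp for ΔSRR2–18-only intergenic regions. To the nearest protein-coding TSS the medians were 56032, 32918 and 82589 bp. More than 100 kb from a protein-coding TSS lay 35.6% (interval 34.9 to 36.4) of parent-only, 22.7% of shared and 45.6% of ΔSRR2–18-only intergenic regions. The region lay upstream of its nearest protein-coding TSS in 61.5% of parent-only, 63.3% of shared and 63.0% of ΔSRR2–18-only intergenic regions. Repeat-masked sequence made up 8.22% of the 201 bases around the summit on average, against 7.40% in shared and 11.5% in ΔSRR2–18-only intergenic regions, a comparison added after the data were seen. Although outside every GENCODE gene, 14.2% of the summits lay inside a gene as RefSeq bounds it.

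The strongest parent-only intergenic regions stood among the strongest of the whole parent list. The 6 with the highest fold enrichment, from 35.2 to 32.1, ranked in the top 0.0652% of all parent regions. The strongest was chr4:99459402-99459930, 164 kb downstream of the TSS of *Gm12689*, with a fold enrichment of 35.2, 2610 summit reads and a −log10 p of 2953. The nearest ΔSRR2–18 region lay 31498 bp away. The third, chr3:35585279-35585880, lay 169 kb upstream of *Atp11b*, which encodes a phospholipid flippase, with a fold enrichment of 33.1. The fourth, chr10:13916641-13917410, lay 48.2 kb upstream of *Aig1* with a fold enrichment of 32.8. The sequences of the first and the third are shown because they carry the highest values given here.
*Gm12689* region, chr4:99459579-99459699: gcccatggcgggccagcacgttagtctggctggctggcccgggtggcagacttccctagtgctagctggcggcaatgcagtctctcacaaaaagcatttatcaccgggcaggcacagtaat
*Atp11b* region, chr3:35585541-35585661: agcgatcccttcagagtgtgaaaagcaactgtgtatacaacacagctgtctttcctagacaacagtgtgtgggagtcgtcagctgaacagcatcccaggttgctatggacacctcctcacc

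Both sequences contained none of the 5 motifs that capitals mark. The sixth region, chr18:66450280-66450989, lay 7.93 kb upstream of *Pmaip1*, which encodes the apoptosis factor NOXA, with a fold enrichment of 32.1. None of the 4 regions described here held SOX, NFI half-site, RFX or POU letters within 100 bp of its summit. Only exact matches were counted and marked, so variants of these motifs can be present.

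Grouping in runs was less common than among ΔSRR2–18-only intergenic regions, which are more numerous. Within 10 kb of another parent-only intergenic summit lay 40.9% of the summits, in runs of up to 8, against 31.9% of shared intergenic summits, in runs of up to 10, and 53.1% of ΔSRR2–18-only ones, in runs of up to 16. The parent-only runs of 8 lay in 32.8 kb near *Stk35* on chromosome 2 (chr2:129872172-129904987) and in 22.9 kb near *Gng13*, which encodes a G protein subunit, on chromosome 17 (chr17:25663638-25686505). In all 67 runs had at least 5 regions, against 26 and 308 in the shared and ΔSRR2–18-only classes.

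Sites near *Sox2*, the gene whose enhancers were deleted, made up 9 of the regions and 6 of the ΔSRR2–18-only intergenic ones. The guide RNA sites named for the outer ends of SRR2 and SRR18 matched the genome at chr3:34653730-34653752 and chr3:34670038-34670060, a stretch of 16.3 kb. It held 4 parent regions, 3 in gene bodies and 1 at a promoter, and no ΔSRR2–18 region, so none of the parent-only intergenic regions came from the deleted DNA itself. The nearest lay 81.4 kb beyond it, 101 kb downstream of the *Sox2* TSS (chr3:34751465-34752078, fold enrichment 15.2, 603 reads). The farthest lay 502 kb downstream. The strongest by fold enrichment (20.1, 1005 reads) was chr3:34949629-34950369 and held a POU octamer 24 bases from its summit. Between chr3:35088245 and chr3:35152866, 4 further regions had 2480 to 5088 summit reads on a raised local background, with fold enrichments of 6.56 to 15.3. One of them, chr3:35141216-35142466, held SOX, NFI half-site and RFX letters within 100 bp, and the latter 2 are in the 121 bases shown.
*Sox2* region, strongest, chr3:34949997-34950117: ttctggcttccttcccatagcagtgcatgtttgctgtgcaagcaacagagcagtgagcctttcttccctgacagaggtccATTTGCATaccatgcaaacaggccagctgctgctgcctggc
*Sox2* region with NFI half-site and RFX letters, chr3:35141943-35142063: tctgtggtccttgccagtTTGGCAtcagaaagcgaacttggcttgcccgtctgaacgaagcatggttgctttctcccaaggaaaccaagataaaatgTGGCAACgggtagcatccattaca

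Genes were compared by the number of regions for which they had the nearest protein-coding TSS. Of 21924 protein-coding genes, 5770 (26.3%) were nearest to at least 1 parent-only intergenic region, and 7079 were nearest to at least 1 ΔSRR2–18-only intergenic region. Genes in wide intergenic stretches can collect more regions of either kind, so the 2 counts are given together. Over all genes, parent-only regions made up 35.2% of the 2 kinds.

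The 10 genes with most parent-only intergenic regions had 24 to 36 each. *Tbl1xr1*, which encodes a corepressor subunit, had 36, against 30 ΔSRR2–18-only ones. On the X chromosome, the corepressor gene *Bcor* had 33 against 12, and *H2al1j*, a histone variant gene, had 31 against 15. *Mki67*, the gene of the proliferation marker Ki-67, had 29 against 12, all of the 29 more than 100 kb away. The transcription factor gene *Maf* had 29 against 18 and *Rybp*, which encodes a Polycomb subunit, 24 against 20. *Sox9*, a radial glia factor, had 31 against 37, *Zfp608* 30 against 37, the ephrin receptor gene *Epha4* 25 against 37 and the latrophilin gene *Adgrl2* 28 against 50. Within 100 kb of the TSS the counts were 2 against 6 for *Tbl1xr1*, 5 against 1 for *Bcor* and 6 against 2 for *H2al1j*. They were 9 against 6 for *Maf* and for *Rybp*, 8 against 5 for *Sox9*, 4 against 4 for *Epha4* and 4 against 5 for *Adgrl2*. *Zfp608* and *Mki67* had none of either kind there. These genes were picked for their parent-only count, so a lean towards it is built in. Over all genes, 2802 had more parent-only and 5241 more ΔSRR2–18-only intergenic regions.

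Neural stem cell and radial glia genes had the highest share of parent-only regions of the 6 gene lists. Of 30 genes, 28 (93.3%) were nearest to at least 1, beside 26.3% of all protein-coding genes, and 22 to at least 1 ΔSRR2–18-only one. Together they had 161 parent-only and 170 ΔSRR2–18-only intergenic regions. The parent-only share was 48.6% (interval 43.3 to 54.0) beside 35.2% over all genes. Within 100 kb of the TSS the counts were 74 and 44, or 62.7% beside 39.2% over all genes. *Olig2*, which specifies oligodendrocyte and motor neuron progenitors, had 10 parent-only against 3 ΔSRR2–18-only regions, all 10 within 64.6 kb. *Slc1a3*, the glutamate transporter gene GLAST of radial glia, had 10 against 3. The Notch effector *Hes1* had 15 against 12, the POU factor gene *Pou3f3* 10 against 12 and *Nfib*, which encodes an NFI factor, 9 against 13. In the list, 16 genes had more parent-only regions and 9 more ΔSRR2–18-only ones. The strongest regions at 3 of these genes are shown because they differ in motif content.
*Olig2* region, chr16:91246392-91246512: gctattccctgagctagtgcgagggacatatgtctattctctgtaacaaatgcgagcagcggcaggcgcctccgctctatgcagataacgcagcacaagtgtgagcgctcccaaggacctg
*Hes1* region, chr16:30129605-30129725: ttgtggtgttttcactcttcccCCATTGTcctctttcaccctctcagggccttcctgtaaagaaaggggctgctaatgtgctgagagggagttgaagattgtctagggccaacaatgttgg
*Pou3f3* region, chr1:42145708-42145828: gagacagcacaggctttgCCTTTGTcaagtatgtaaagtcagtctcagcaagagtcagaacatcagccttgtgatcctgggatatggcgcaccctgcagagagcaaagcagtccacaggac

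The *Olig2* region (chr16:91246231-91246860) lay 20.995 kb downstream of the TSS, had a fold enrichment of 26.2 and 1785 reads, and held none of the marked motifs in these bases. The *Hes1* region (chr16:30129281-30130496) lay 64.3 kb downstream, had a fold enrichment of 16.2 and held SOX letters 35 bases from its summit. The *Pou3f3* region (chr1:42145508-42146123) lay 550.0 kb upstream, had a fold enrichment of 30.5 and held SOX letters 39 bases from its summit.

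Forebrain identity factors stood close to all genes in their share of parent-only regions. The list had 74 against 143 ΔSRR2–18-only ones, a share of 34.1% (interval 28.1 to 40.6) beside 35.2% over all genes. Of 31 genes, 18 (58.1%) were nearest to at least 1 parent-only intergenic region, beside 26.3% of all protein-coding genes. At least 1 ΔSRR2–18-only one was nearest to 19 of them. *Nr2f1* and *Nr2f2*, orphan nuclear receptors that pattern the cortex, had 15 against 28 and 14 against 31. *Gsx2*, a factor of the ventral forebrain, had 4 against 2, *Lhx8* 5 against 7 and *Emx2*, a factor of the dorsal forebrain, 4 against 5.

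Neuronal differentiation genes had 77 parent-only and 130 ΔSRR2–18-only intergenic regions, a share of 37.2% (interval 30.9 to 44.0). Of the 27 genes, 17 (63.0%) were nearest to at least 1 parent-only one, beside 26.3% of all protein-coding genes. For at least 1 ΔSRR2–18-only region the count was 19. The Notch ligand *Dll1* had 7 against 2. *Sox11* had 17 against 43 and *Sox4* 5 against 8, both SOX factors of young neurons. *Bcl11a* had 9 against 10, *Bcl11b* 7 against 7 and *Myt1l*, a zinc finger factor of neurons, 7 against 6. Within 100 kb of the TSS *Dll1* had 6 against 2, *Sox11* 5 against 9, *Sox4* 3 against 4 and *Bcl11b* 1 against 6. *Bcl11a* and *Myt1l* had none of either kind within that distance. The strongest region nearest to *Bcl11b* lay wholly in repeat-masked sequence around its summit.

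The adhesion and guidance list had the lowest share of parent-only regions of the 6 lists when no distance limit was set. It had 240 against 887 ΔSRR2–18-only intergenic regions, a share of 21.3% (interval 19.0 to 23.8). Even so, 47 of its 66 genes (71.2%) were nearest to at least 1 parent-only region, beside 26.3% of all protein-coding genes. For at least 1 ΔSRR2–18-only region the count was 52. The N-cadherin gene *Cdh2* had 14 against 50, *Robo2*, which encodes a receptor of SLIT guidance cues, 12 against 22 and *Cdh6* 12 against 23. *Cntn3* had 12 against 12. *Opcml*, which encodes a cell adhesion molecule of the immunoglobulin family, was an exception with 12 against 4. Of the 66 genes, 45 had more ΔSRR2–18-only and 7 more parent-only regions. Within 100 kb of the TSS the share of parent-only regions was 33.9%, and the caudal and HOX list was then lowest with 26.7%. That figure rests on few regions, 8 parent-only against 22 ΔSRR2–18-only ones.

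Caudal and HOX genes had few regions of either kind, 11 against 28. The share was 28.2% (interval 16.5 to 43.8), an interval that includes the 35.2% over all genes. Of the 40 genes, 4 (10.0%) were nearest to at least 1 parent-only intergenic region, beside 26.3% of all protein-coding genes. At least 1 ΔSRR2–18-only one was nearest to 13 of them. *Evx1* had 5 against 11, *Gbx2*, a factor of the anterior hindbrain, 3 against 2, *Mnx1*, a motor neuron factor, 2 against 3 and *Fgf8*, a signal of the midbrain boundary, 1 against 0. Genes of other germ layers, neural crest and pluripotency had 59 against 152, a share of 28.0% (interval 22.3 to 34.4). Of these 35 genes, 16 (45.7%) were nearest to at least 1 parent-only region and 22 to at least 1 ΔSRR2–18-only one. *Foxa2*, a factor of floor plate and endoderm, had 18 against 6. *Gata3* had 3 against 39, the 3 lying 1124 to 1239 kb from its TSS, and *Runx1*, a blood factor, had 3 against 24. *Cdh5*, the cadherin gene of blood vessels, had 15 against 15 and *Foxd3*, a neural crest factor, 4 against 2.

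**Figure D4:**
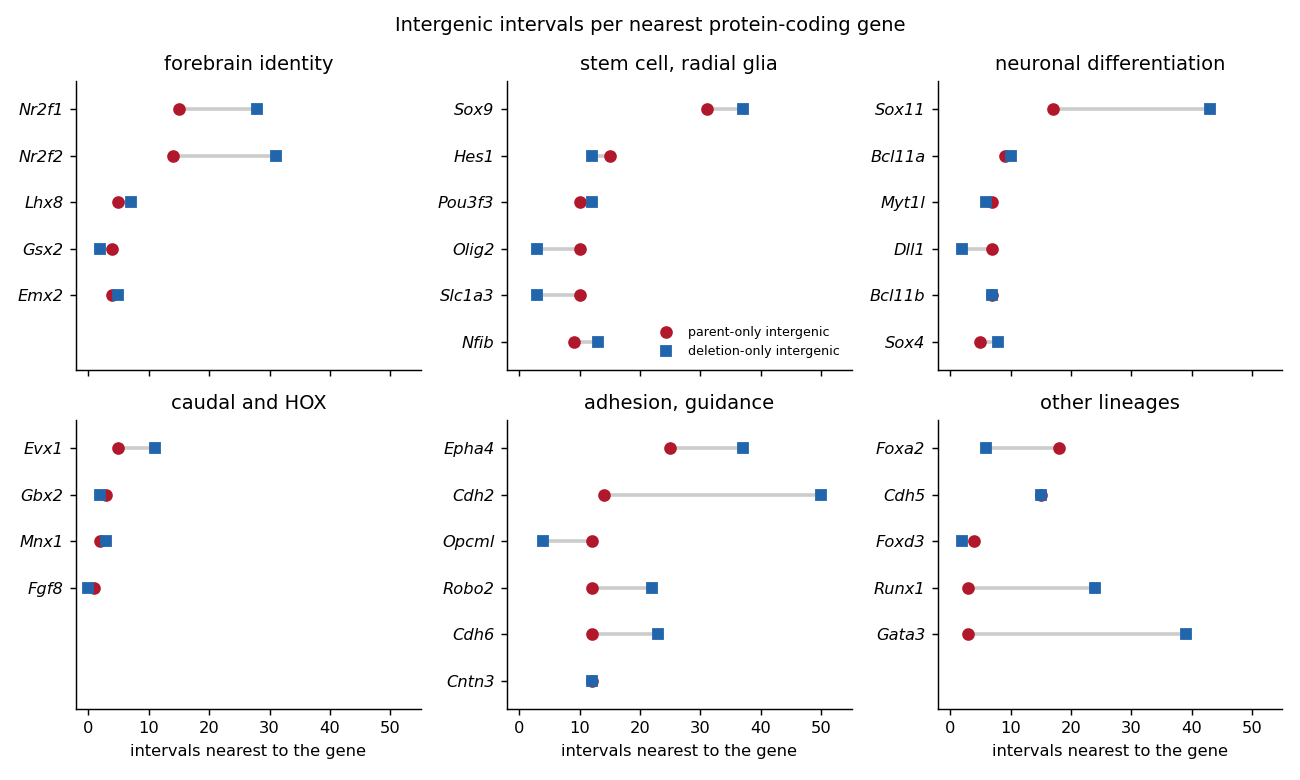
Number of parent-only (red circles) and deletion-only (blue squares) intergenic intervals (x axis) with each gene (y axis) as nearest protein-coding gene, for 4 to 6 genes from each of 6 lists. *Olig2*, *Slc1a3*, *Dll1*, *Opcml* and *Foxa2* have more parent-only intervals, and *Sox11*, *Cdh2*, *Runx1* and *Gata3* have more deletion-only ones.

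Parent-only intergenic regions also overlapped enhancers with known activity in the embryo. VISTA elements are DNA fragments tested in transgenic mouse embryos for the tissues in which they drive a reporter gene, and RefSeq places 620 active ones in the mouse genome. This comparison was added after the data were seen. At least 1 parent-only intergenic region overlapped 85 of the 620 elements (13.7%), and at least 1 ΔSRR2–18-only intergenic region overlapped 45 (7.26%). The 10440 shared intergenic regions overlapped as many elements as the parent-only ones, 85 (13.7%), and parent-only gene-body regions overlapped 100 (16.1%). Of the 286 elements active in brain or neural tube, 50 (17.5%, interval 13.5 to 22.3) had a parent-only intergenic region, against 20 (6.99%, interval 4.57 to 10.6) with a ΔSRR2–18-only one and 45 (15.7%, interval 11.97 to 20.4) with a shared one. Of the 334 active only elsewhere, 35 (10.5%, interval 7.63 to 14.2) and 25 (7.49%, interval 5.12 to 10.8) did.

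By tissue, 32 of 167 forebrain elements (19.2%, interval 13.9 to 25.8) had a parent-only intergenic region and 14 (8.38%, interval 5.06 to 13.6) a ΔSRR2–18-only one. For midbrain the counts were 28 (17.6%) and 10 of 159 and for hindbrain 25 (17.9%) and 11 of 140. For neural tube they were 23 (23.5%, interval 16.2 to 32.8) and 10 (10.2%) of 98. Its parent-only share was the highest of these tissues. For limb the counts were 27 (15.5%) and 18 of 174 and for heart 13 (8.18%) and 7 of 159. The 95% intervals of the 2 shares were apart for forebrain and midbrain and overlapped for hindbrain, neural tube, limb and heart. An element can be active in several tissues, so these counts share elements. Shared intergenic regions overlapped 24 of the forebrain elements and parent-only gene-body regions 42. Which elements were tested depended on the interests of those who tested them, so the shares describe the collection and not all enhancers.

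**Figure D5:**
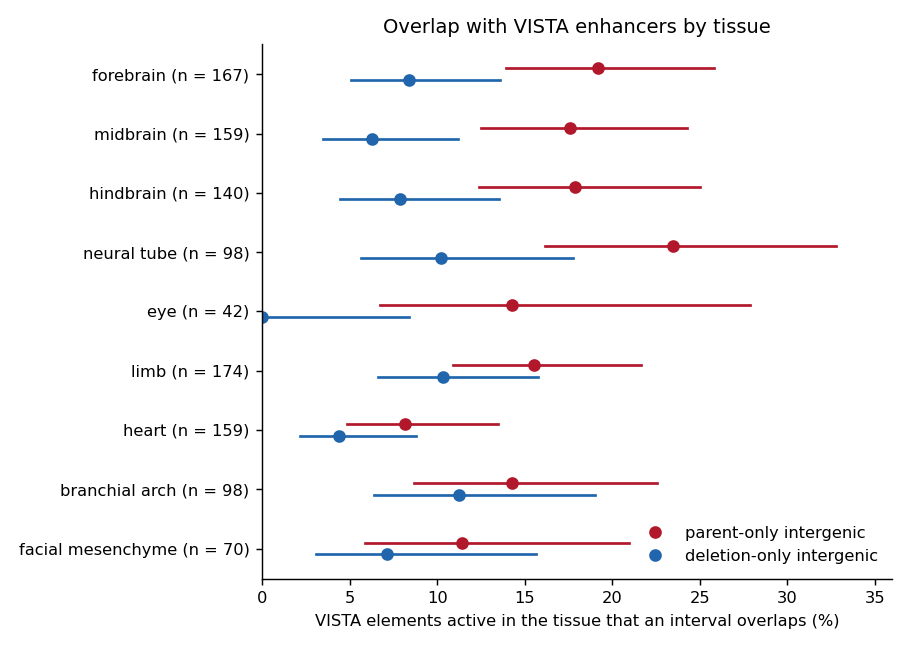
Percent of VISTA elements active in each tissue (y axis, with the number of elements) that at least 1 parent-only (red) or deletion-only (blue) intergenic interval overlaps (x axis), with 95% Wilson intervals. The forebrain shares are 19.2% and 8.38%, and the neural tube shares are 23.5% and 10.2%. The intervals are apart for forebrain and midbrain and overlap for the other 7 tissues.

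Of the 32 forebrain elements with a parent-only intergenic region, 26 had no ΔSRR2–18 region of either list, beside 63 of all 85 elements with one. By the rule, the parent-only region itself overlaps no region of the conservative ΔSRR2–18 list. Element mm1737, chr2:45225128-45226724, active in the forebrain of 4 of 7 embryos, lay 108 kb from the TSS of *Zeb2*, which encodes a repressor needed in cortical neurons and neural crest. The region in it (chr2:45225332-45225988) had a fold enrichment of 24.2. Element mm1372, chr1:75288287-75291172, active in the forebrain of 5 of 12 embryos, lay 11.2 kb from the TSS of *Resp18*, and its region (chr1:75289191-75289856) had 23.0. Element mm1334 near *Ccnh*, 406 kb away, held 2 regions, the stronger at 22.9, and mm13, 220 kb from *Cdh6*, held the strongest region of that gene at 21.3. The first 2 are shown because a POU octamer and an NFI half-site in the one, and RFX letters in the other, lay 15 to 25 bases from the summit.
*Zeb2* region in element mm1737, chr2:45225553-45225673: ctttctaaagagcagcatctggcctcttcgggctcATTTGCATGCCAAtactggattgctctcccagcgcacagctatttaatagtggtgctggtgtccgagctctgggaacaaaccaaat
*Resp18* region in element mm1372, chr1:75289510-75289630: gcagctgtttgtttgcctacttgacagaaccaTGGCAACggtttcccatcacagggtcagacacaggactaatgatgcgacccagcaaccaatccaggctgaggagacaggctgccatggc

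The strongest region nearest to *Sox9* (chr11:112412286-112412878, fold enrichment 19.2) lay 370 kb upstream of its TSS in element mm634, whose listed activity is in branchial arch and limb. The strongest element overlap of all, at a fold enrichment of 26.0, was mm143 near the lactate transporter gene *Slc16a1*, with listed activity in the heart.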

How the data were processed

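ATAC-seq peaks of 3 parent and 3 ΔSRR2–18 cultures were used as the authors deposited them, 1 conservative and 1 optimal list per genotype. Per the study's methods, the authors ran the ENCODE ATAC-seq pipeline with MACS2 on mm10 and combined cultures by IDR, and other settings are not given in the sources used here. Deposited values used were the fold enrichment over local background, its −log10 p, the IDR score and the summit offset, all on pooled reads. The IDR scores deposited by the authors are capped, and the fold enrichment (a ratio) deposited by the authors depends on depth, so it was not compared between genotypes. One allele is Cast, so reads that differ from the reference may map less often.

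Distinct intervals of the conservative lists were compared at 1 bp overlap in Python 3.11.15, and bedtools 2.31.1 gave the same 43385 parent-only intervals. Where an interval was listed with several summits, the one with the largest fold enrichment stood for it. Reads at the summit followed from its fold enrichment and −log10 p under a Poisson model and came out whole, within 0.05, for 100% of intervals. They are pileup heights, not fragments. Genes and TSSs were GENCODE M21 basic, VISTA elements RefSeq on GRCm38.p6. Motifs were exact matches on both strands within 100 bp of the summit. Shares carry 95% Wilson intervals and ratios 95% log-scale intervals. Scripts were tested on simulated data.

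The regions and gene lists were chosen with earlier results of these data known. Named genes were the 10 with most regions, up to 6 per list with most regions (ties by the strongest region), those nearest to the 6 strongest regions, and regions at the thresholds of the rule. Genes named for a printed sequence, a run or a VISTA element were chosen after their values were seen. Alternatives covered the lists, absence, scores, list length, chromosomes, gene and promoter definitions, motif windows and letters, GC content, gene distance and depth. Some named genes and regions that this rule gives are not reported here.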

Additional observations from a re-analysis of the deposited data

How the results depend on the processing

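No paired analysis was possible because the lists pool the cultures of each genotype, and leaving out a culture was not possible for the same reason. The number of parent-only intergenic regions stayed within 1.5 times 15440 in each alternative except the stronger part of the parent list by fold enrichment (at or above its median), which by construction left 6301. The share of intergenic parent regions without a ΔSRR2–18 region was 58.2% with the optimal lists, 56.0% when absence was required from both ΔSRR2–18 lists, 52.3% with no ΔSRR2–18 region within 1 kb, 60.9% judged by the summit alone, 60.7% at an IDR score of at least 830, 51.8% in the stronger part and 66.7% with the ΔSRR2–18 list cut to the parent length. The median fold enrichment was 7.76 with the optimal lists, 8.52 with no ΔSRR2–18 region within 1 kb, 9.41 at the higher score, 15.0 in the stronger part and 8.13 with the cut list. The median TSS distance was 20218 bp with no ΔSRR2–18 region within 1 kb, 21550 bp in the stronger part, 18571 bp with the cut list, 21225 bp with promoters of 2.5 kb and 17966 bp with protein-coding genes alone. In the stronger part 16.7% held SOX, 31.9% NFI half-site and 12.97% ZIC letters, and with the cut list 27.6% held NFI half-site and 3.09% AP-1 letters. In a window of 50 bp, 9.003% held SOX, 17.1% NFI half-site, 6.94% ZIC and 1.37% AP-1 letters, and the 6-letter SOX cores ACAAAG and ACAATG were present in 39.5%, against 26.9% in the flank, with a ratio over ΔSRR2–18-only intergenic regions of 1.45 in place of 2.28. Weighted to the same GC content, the ratios of parent-only to ΔSRR2–18-only intergenic shares turned from 1.40 to 0.817 for ETS and from 1.67 to 0.996 for HES/HEY letters. Autosomes alone, leaving out chromosome 12 and, added after the data were seen, leaving out RefSeq genes moved none of these values beyond their 95% intervals. With the summit required inside the VISTA element, also added later, 80 of 620 elements and 31 of 167 forebrain elements had a parent-only intergenic region. The depth of each culture is unknown, since the lists are pooled.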

Other observations

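By chromosome, the share of intergenic parent regions without a ΔSRR2–18 region ranged from 55.5% on chromosome 19 (353 of 636) to 65.2% on the X chromosome (555 of 851, interval 62.0 to 68.3). The 7 parent-only intergenic regions of the Y chromosome all lay in 1 stretch of 19.5 kb near *Gm21860*.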
